A study of Homo sapiens with 4 samples.

Results

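The genes described here are 10 members of the interleukin-1 (IL-1) system: the ligands IL1A, IL1B, IL1RN, IL33 and IL18, the receptor chains IL1R1, IL1RAP and IL1RL1, and the pair CASP1 and CARD16. They are the rows of the expression table whose gene symbol equals one of these names, and they make up 10 of its 22578 genes. The set was drawn up after IL1B, IL33 and CASP1 had been seen to differ between the groups in these same libraries. The members' values are therefore given as a description without a test, and their directions support nothing by themselves. RNA-seq was done on the U87MG line, derived from a human glioblastoma and long established in culture, after retroviral transfer of a short hairpin RNA against KDM2B (shKDM2B, 2 libraries) or against firefly luciferase (shControl, 2 libraries). In both groups, cells at passage 8 were transduced on day 1, kept in puromycin at 1 µg/mL from day 3 and pelleted on day 9; the labels name no added cytokine. KDM2B is a histone demethylase that binds unmethylated CpG-rich DNA through a CXXC zinc finger. The labels do not say which hairpin sequence the shKDM2B libraries carry. The study describes its replicates as biological, but whether they came from separate transductions is not said, so p-values measure only the spread between libraries, which may be technical.

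IL-1 family ligands are cytokines that alarm neighbouring cells. IL-1α and IL-1β bind the receptor IL1R1, which then recruits the accessory chain IL1RAP and signals through MYD88 and IRAK kinases to NF-κB. IL-33 does the same through IL1RL1 and IL1RAP, whereas the receptor antagonist encoded by IL1RN occupies IL1R1 without recruiting IL1RAP. IL-1β and IL-18 are made as precursors without a signal peptide, and caspase-1, once activated on an inflammasome, cuts them to their active forms. Gliomas and astrocytes are known to make and answer to IL-1.

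Depth was 33770421 and 33330886 counts in the shKDM2B libraries, against 31433165 and 30470803 in the shControl libraries. KDM2B itself had 520 and 465 counts in shKDM2B cells, against 1257 and 1253 in shControl cells, a log2 fold change of -1.60 with an SE of 0.06 (edgeR adjusted p = 3.38e-19). Across the 21783 genes tested, 13.3% were called higher and 6.79% lower in shKDM2B cells, where called means an adjusted p of at most 0.05 and at least a 1.5-fold difference in edgeR's quasi-likelihood test. Of these calls, 66.1% were higher under TMM scaling and 90.4% after centring on 76 ribosomal protein genes, whose median log2 fold change was -0.35. The centring moved the median of all genes to 0.36 from 0.01, and adds the same amount to every log2 fold change below. Of 13 leukocyte markers, 7 had a row, and their summed level was 247 to 251 CPM in shKDM2B cells and 302 to 311 CPM in shControl cells, most of it from CD68, a lysosomal gene that many cells express. The pan-leukocyte gene PTPRC had 7 and 3 counts in shKDM2B cells and 3 and 10 in shControl cells, and ITGAM, FCER1G and CD163 had 2 to 49 counts. The growth factor receptor CSF1R had 491 and 542 counts in shKDM2B cells and 410 and 364 in shControl cells. The lysozyme gene LYZ had 275 and 253 counts in shKDM2B cells and 207 and 222 in shControl cells. Per kb of exonic length, CSF1R averaged 2.86 CPM in shKDM2B cells and 2.54 CPM in shControl cells. In shKDM2B cells IL1B, IL1A, IL1R1, IL1RAP and CASP1 exceeded it, and CARD16 (3.11) overlapped with it. In shControl cells IL1B, IL1R1, IL1A and IL1RN exceeded it. LYZ averaged 4.36 CPM per kb in shKDM2B cells, between IL1RAP (5.17) and CASP1 (3.52). In shControl cells LYZ averaged 4.21 CPM per kb and overlapped with IL1A (4.03). Of the 8 glioma markers, 6 had a row: VIM, CD44, FN1 and EGFR were called lower in shKDM2B cells, GFAP higher and NES not called; after centring on ribosomal protein genes, VIM (-0.48), CD44 (-0.40) and EGFR (-0.58) lost the call. VIM averaged 2512 ± 7.31 CPM in shKDM2B cells and 4460 ± 50.1 CPM in shControl cells (SD, n = 2 each). Endothelial markers summed to at most 1.69 CPM in shKDM2B cells and 2.23 CPM in shControl cells, and epithelial ones to 1.29 and 0.733 CPM. Among them VWF was called higher (29 and 36 counts in shKDM2B cells, against 10 and 12 in shControl cells), TEK lower (21 and 23, against 57 and 36) and EPCAM higher (40 and 45, against 22 and 21), the last at 0.73 and not called with DESeq2 or without shControl library 1, shControl library 2 or shKDM2B library 2 (0.63 to 0.75). The part of these markers in the members' values was not tested. In bulk RNA, fewer cells that express a gene and less RNA per cell cannot be told apart.

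Levels are given as CPM, library-scaled counts (TMM), with the mean ± SD of 2 libraries. Of the 10 members, 5 were past both thresholds with higher values in shKDM2B cells (IL1A, IL18, IL1RAP, CASP1 and CARD16), 3 with lower values (IL1B, IL1RN and IL33), and IL1R1 and IL1RL1 were past neither direction's thresholds. Because the members were picked on this contrast, nothing is read from these counts against the percentages above. In all 10 members the libraries of one group lay wholly to one side of those of the other, as they did in 77.6% of all genes tested.

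**Figure D1:**
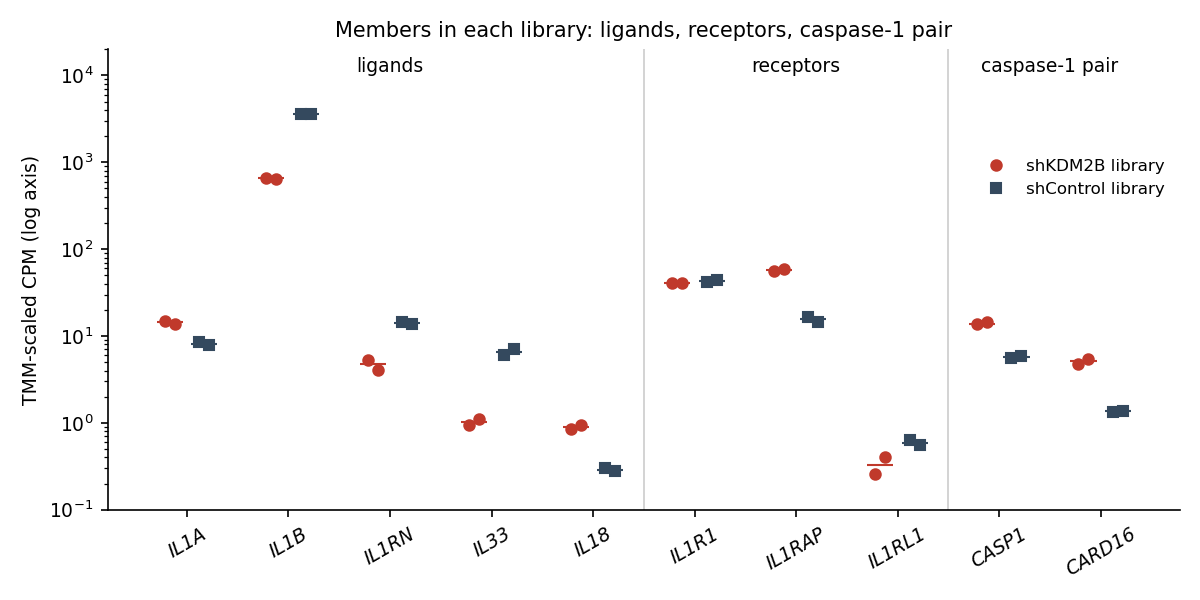
TMM-scaled CPM of each member in each library on a log axis, shKDM2B libraries as circles on the left of each gene and shControl libraries as squares on the right, with a short line at the mean of 2 libraries. IL1B lies above all other members in every library, at 643 to 657 CPM in shKDM2B cells and 3564 to 3616 CPM in shControl cells.

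IL1B, which encodes IL-1β (chr2:113587328-113594393 on the minus strand, GRCh37), was the most abundant member by far. Its counts were 23209 and 22449 in shKDM2B cells, against 108597 and 103753 in shControl cells. Both shControl libraries held more than either shKDM2B library, with no overlap. IL1B was the 12th most counted gene in both shControl libraries, taking 0.345% and 0.340% of all counts, whereas in shKDM2B cells it ranked 120th and 126th with 0.0687% and 0.0674%. IL1B averaged 650 ± 9.86 CPM in shKDM2B cells and 3590 ± 36.6 CPM in shControl cells (SD, n = 2 each), 5.52-fold lower in shKDM2B cells. The log2 fold change was -2.46 (SE 0.02), the 27th lowest of the 21783 genes tested. Even after this difference IL1B in shKDM2B cells stayed above every other member in either group.

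IL1A encodes IL-1α, which is active as a precursor and signals through the same receptor as IL-1β. It lies beside IL1B at chr2:113531502-113542070 on the minus strand (GRCh37). Its counts were 527 and 477 in shKDM2B cells, against 253 and 228 in shControl cells. Both shKDM2B libraries were above both shControl libraries, the opposite order to IL1B. IL1A averaged 14.3 ± 0.887 CPM in shKDM2B cells and 8.13 ± 0.418 CPM in shControl cells (SD, n = 2 each), 1.76-fold higher, with a log2 fold change of 0.81 (SE 0.09). Among the called members, the difference of IL1A was the smallest and the only one under 2-fold.

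IL1RN, which encodes the receptor antagonist (chr2:113856892-113891593 on the plus strand, GRCh37), had 189 and 142 counts in shKDM2B cells, against 430 and 399 in shControl cells. The shControl libraries were higher without overlap, as for IL1B. IL1RN averaged 4.71 ± 0.907 CPM in shKDM2B cells and 14 ± 0.432 CPM in shControl cells (SD, n = 2 each), 2.97-fold lower, with a log2 fold change of -1.57 (SE 0.11). An agonist, IL1B, and the antagonist of the same receptor thus had lower values together, while the other agonist, IL1A, had higher ones.

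IL33 encodes IL-33, a nuclear cytokine released from damaged cells and known in the brain from astrocytes (chr9:6215786-6257983 on the plus strand, GRCh37). It had 33 and 39 counts in shKDM2B cells, against 181 and 205 in shControl cells. The 2 groups were far apart for a gene of so few counts. IL33 averaged 1.03 ± 0.129 CPM in shKDM2B cells and 6.53 ± 0.718 CPM in shControl cells (SD, n = 2 each), 6.37-fold lower. Its log2 fold change of -2.67 (SE 0.16) was the lowest of the members and the 17th lowest of all genes tested. The ratio of the summed counts, shKDM2B over shControl, was 0.157 with an exact 95% interval of 0.120 to 0.203, which covers counting error only.

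IL18 encodes IL-18, the other precursor that caspase-1 cuts (chr11:112013976-112034819 on the minus strand, GRCh37). It was scarce, with 30 and 33 counts in shKDM2B cells, against 9 and 8 in shControl cells. The shKDM2B libraries were higher without overlap, but on few reads. IL18 averaged 0.898 ± 0.068 CPM in shKDM2B cells and 0.287 ± 0.0176 CPM in shControl cells (SD, n = 2 each), 3.12-fold higher, with a log2 fold change of 1.63 (SE 0.36). The interval of the ratio from counting error alone, 1.8 to 5.69, was the widest relative to its value among the members past the thresholds. With a minimum mean count of 50, IL18 was not tested.

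**Figure D2:**
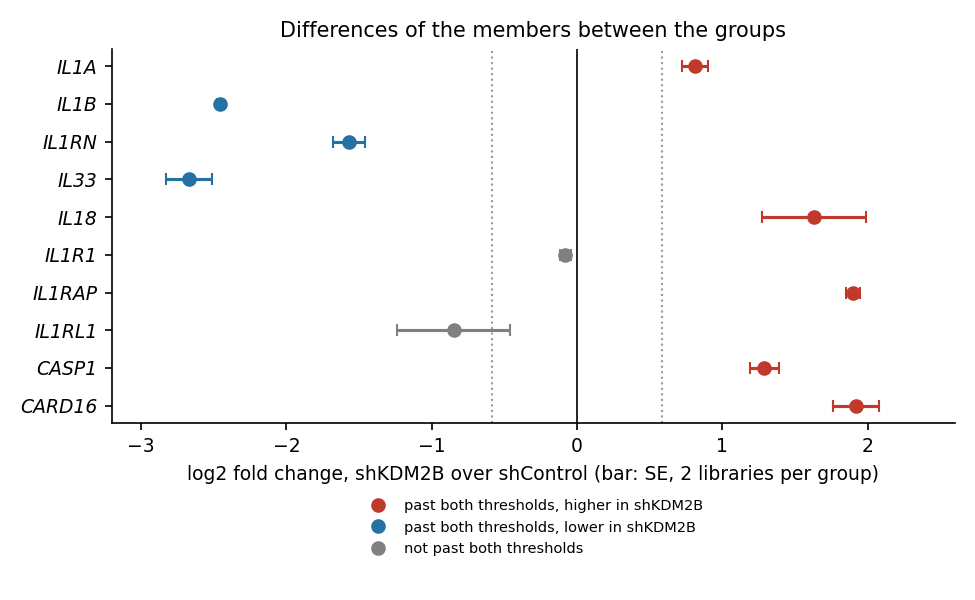
Log2 fold change of each member, shKDM2B over shControl, with its SE as a horizontal bar and the 1.5-fold thresholds as dotted lines. IL33 (-2.67), IL1B (-2.46) and IL1RN (-1.57) lie to the left, and CARD16 (1.92), IL1RAP (1.90), IL18 (1.63), CASP1 (1.29) and IL1A (0.81) to the right.

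The receptor chains did not share a direction. IL1R1, the chain that binds IL-1α, IL-1β and the antagonist (chr2:102681004-102796334 on the plus strand, GRCh37), had 1423 and 1423 counts in shKDM2B cells, against 1261 and 1276 in shControl cells. In CPM, the order was the reverse, with TMM factors of 1.05 in both shKDM2B libraries, against 0.956 and 0.955 in the shControl libraries. IL1R1 averaged 40.5 ± 0.34 CPM in shKDM2B cells and 42.9 ± 1.31 CPM in shControl cells (SD, n = 2 each), a log2 fold change of -0.08 (SE 0.04). Its sign depended on the scaling, as the value was 0.26 after centring on ribosomal protein genes. The antisense gene IL1R1-AS1 lies across 7254 bases of the 3′ end of IL1R1 and had 1078 and 1087 counts in shKDM2B cells, against 1048 and 965 in shControl cells, so part of these reads may be counted for both genes.

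IL1RAP, the shared accessory chain without which neither IL1R1 nor IL1RL1 signals (chr3:190231840-190377539 on the plus strand, GRCh37), had 1994 and 2071 counts in shKDM2B cells, against 497 and 422 in shControl cells. Every shKDM2B library held several times the count of every shControl library. IL1RAP averaged 57.9 ± 2.04 CPM in shKDM2B cells and 15.5 ± 1.45 CPM in shControl cells (SD, n = 2 each), 3.73-fold higher, with a log2 fold change of 1.90 (SE 0.05).

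IL1RL1, the receptor of IL-33 (chr2:102927962-102968497 on the plus strand, GRCh37), was close to the detection limit with 9 and 14 counts in shKDM2B cells, against 19 and 16 in shControl cells. IL1RL1 averaged 0.328 ± 0.103 CPM in shKDM2B cells and 0.591 ± 0.0587 CPM in shControl cells (SD, n = 2 each), a log2 fold change of -0.85 (SE 0.39). The libraries did not overlap, but the fall was past the thresholds only when shKDM2B library 2 was left out, which gave -1.21. Nearly all of IL1RL1 lies within the span of IL18R1, the IL-18 receptor gene on the same strand, which had 27 and 33 counts in shKDM2B cells, against 38 and 26 in shControl cells. Thus RNA for the IL-33 receptor was scarce in both groups, and the IL-33 ligand was the member with the lowest log2 fold change.

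CASP1 encodes caspase-1, and CARD16 a short protein made of little more than a caspase recruitment domain nearly identical to that of caspase-1, which can bind caspase-1. The genes lie side by side on the minus strand of chromosome 11, at chr11:104896124-104905977 (CASP1) and chr11:104912053-104972158 (CARD16) on GRCh37. Their second exons, which encode most of that domain, are shown because reads were 50 bases long and can fall wholly inside stretches where the genes do not differ. Both are read from GRCh37, at chr11:104904935-104905201 for CASP1 and chr11:104915119-104915385 for CARD16, on the coding strand, with the differing bases in capitals.
CASP1 exon 2: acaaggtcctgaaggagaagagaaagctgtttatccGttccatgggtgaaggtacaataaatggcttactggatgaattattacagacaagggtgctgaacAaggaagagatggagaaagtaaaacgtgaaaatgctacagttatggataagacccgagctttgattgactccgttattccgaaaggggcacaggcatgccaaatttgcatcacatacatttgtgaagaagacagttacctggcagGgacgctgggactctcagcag
CARD16 exon 2: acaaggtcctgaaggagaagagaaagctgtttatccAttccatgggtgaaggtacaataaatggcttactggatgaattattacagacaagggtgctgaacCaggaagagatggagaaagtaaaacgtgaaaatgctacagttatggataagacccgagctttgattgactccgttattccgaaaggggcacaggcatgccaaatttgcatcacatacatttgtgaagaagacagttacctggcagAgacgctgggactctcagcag

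Of the 267 bases of this exon, 264 (98.9%) are identical and 3 differ, and the longest stretch without a difference has 144 bases. Counted from the first base of the exon, with the CASP1 base first, the substitutions are G37A, A102C and G247A. Of the 218 windows of 50 bases within the exon, 110 are the same in both genes. Over all annotated transcripts (GENCODE), 203 windows are shared, which is 4.48% of the 4531 windows of CASP1 and 12.2% of the 1665 windows of CARD16. None of the sources used here says how reads from such windows were assigned. The other members shared 0% to 0.763% of their windows with any other gene, IL1RL1 with IL18R1 at the top of that range.

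CASP1 had 481 and 498 counts in shKDM2B cells, against 168 and 169 in shControl cells. CARD16 had 168 and 191 counts in shKDM2B cells, against 40 and 40 in shControl cells. In both genes the shKDM2B libraries were higher without overlap. CASP1 averaged 13.9 ± 0.459 CPM in shKDM2B cells and 5.70 ± 0.150 CPM in shControl cells (SD, n = 2 each), 2.45-fold higher, with a log2 fold change of 1.29 (SE 0.10). CARD16 averaged 5.12 ± 0.506 CPM in shKDM2B cells and 1.35 ± 0.0299 CPM in shControl cells (SD, n = 2 each), 3.78-fold higher, with a log2 fold change of 1.92 (SE 0.16). With the counts of both genes summed, the log2 fold change was 1.43.

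Levels can be compared between genes only per length, here as CPM per kb of exonic length. These values are approximate, because the deposited counts appear to take in introns on either strand: of 375 genes that lie within an intron of a gene on the opposite strand, the surrounding gene had at least as many counts in 90.1%, where 44.4% of all genes have that many. In shKDM2B cells the order of mean levels per kb was IL1B (216), IL1A (7.09), IL1R1 (5.69), IL1RAP (5.17), CASP1 (3.52), CARD16 (3.11), IL1RN (1.26), IL18 (0.345), IL33 (0.315) and IL1RL1 (0.0571). Only IL18 and IL33 overlapped as neighbours in that order. In shControl cells the order was IL1B (1193), IL1R1 (6.02), IL1A (4.03), IL1RN (3.75), IL33 (2.01), CASP1 (1.44), IL1RAP (1.38), CARD16 (0.821), IL18 (0.110) and IL1RL1 (0.103). There CASP1 overlapped with IL1RAP, and IL18 with IL1RL1. IL33 and IL1RN stood below CARD16 in shKDM2B cells, but above CASP1 in shControl cells. IL1RAP stood above both of them in shKDM2B cells, but below both in shControl cells.

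Ratios between members within a library do not depend on the scaling between libraries. IL1B over IL1A per kb was 29.5 and 31.5 in shKDM2B cells, against 288 and 305 in shControl cells, so that IL1B made up 96.7% and 96.9% of the summed IL1A and IL1B level in shKDM2B cells, against 99.7% in both shControl libraries. The RNA of these agonists was thus nearly all IL1B in both groups, while their proteins were not measured. IL1A over IL1RN was 5.16 and 6.22 in shKDM2B cells, against 1.09 and 1.06 in shControl cells. IL1B over IL1RN moved the other way, to 152 and 196 in shKDM2B cells, against 313 and 323 in shControl cells. For the receptor, IL1RAP over IL1R1 was 0.890 and 0.925 in shKDM2B cells, against 0.250 and 0.210 in shControl cells. By these values IL1RAP RNA came close to IL1R1 RNA in shKDM2B cells. The IL1R1 level may include reads of IL1R1-AS1, so the size of this ratio is uncertain. CASP1 over CARD16 was 1.19 and 1.08 in shKDM2B cells, against 1.74 and 1.76 in shControl cells.

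**Figure D3:**
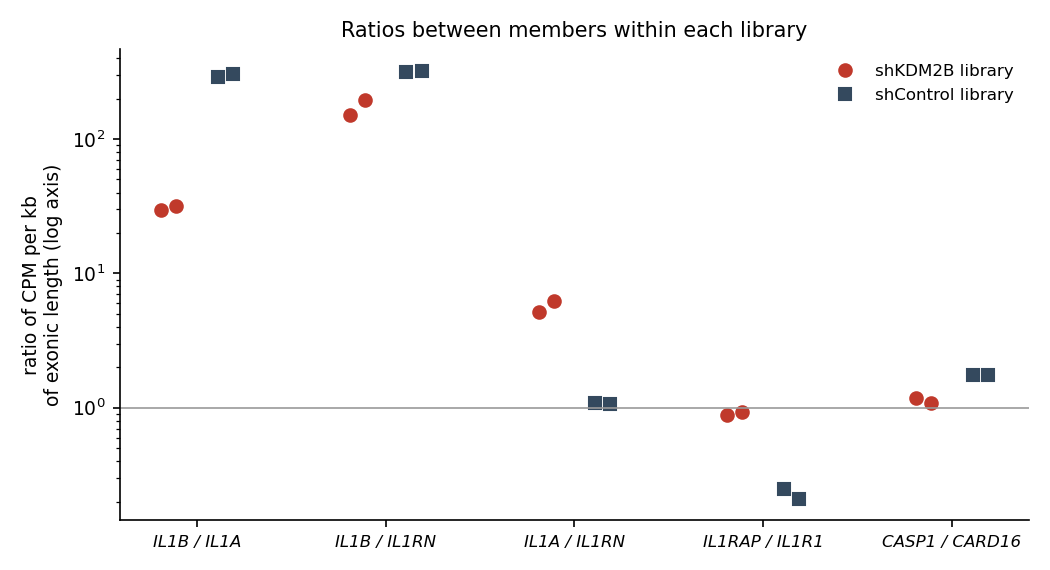
Ratio of 2 members' levels per kb of exonic length within each library, on a log axis, with shKDM2B libraries as circles on the left and shControl libraries as squares on the right. IL1B / IL1A is 29.5 and 31.5 in shKDM2B cells against 288 and 305 in shControl cells, and IL1RAP / IL1R1 is near the line at 1 in shKDM2B cells only.

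Promoter sequence was a feature that the choice of members did not use. RefSeq windows (GRCh38.p14) of 300 bases, 250 before and 50 after a start site, were matched for 7 of the 10 members, 15 windows in all; IL18, CASP1 and CARD16 had no entry. The 250 bases before the first listed start are shown for the most abundant ligand, its neighbour with the opposite direction and the accessory receptor, since they differ in CpG pairs, the letters that the KDM2B zinc finger is known to bind when unmethylated. CpG pairs are in capitals, and each run is on the gene's own strand, at chr2:112836780-112837029 for IL1B (minus), chr2:112784494-112784743 for IL1A (minus) and chr3:190513835-190514084 for IL1RAP (plus).
IL1B: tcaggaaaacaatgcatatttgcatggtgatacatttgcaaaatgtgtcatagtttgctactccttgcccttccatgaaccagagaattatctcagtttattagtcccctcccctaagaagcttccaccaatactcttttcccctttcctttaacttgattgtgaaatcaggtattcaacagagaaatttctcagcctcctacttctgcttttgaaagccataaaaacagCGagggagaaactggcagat
IL1A: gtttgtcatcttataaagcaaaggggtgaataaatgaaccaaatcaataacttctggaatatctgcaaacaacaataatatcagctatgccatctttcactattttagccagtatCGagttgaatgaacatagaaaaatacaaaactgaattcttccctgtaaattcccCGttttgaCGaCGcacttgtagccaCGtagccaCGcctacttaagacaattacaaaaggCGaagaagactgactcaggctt
IL1RAP: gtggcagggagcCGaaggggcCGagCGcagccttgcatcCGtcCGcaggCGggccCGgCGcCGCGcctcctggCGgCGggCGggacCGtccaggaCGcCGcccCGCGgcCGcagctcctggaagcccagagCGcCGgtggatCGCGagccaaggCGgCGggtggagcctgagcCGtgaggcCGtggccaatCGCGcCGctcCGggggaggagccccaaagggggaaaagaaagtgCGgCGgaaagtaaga

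These runs hold 1 CpG pair in IL1B, 7 in IL1A and 33 in IL1RAP. Over the whole 300-base windows, the ratio of observed to expected CpG was 0.155 in IL1B, 0.0766 to 0.391 in the 3 windows of IL1RN and 0.0878 to 0.223 in the 2 windows of IL33, all lower in shKDM2B cells. It was 0.680 and 0.630 in the 2 overlapping windows of IL1A and 0.902 in IL1RAP, both higher in shKDM2B cells. IL1R1, with 4 windows, ranged from 0.209 to 0.884, and IL1RL1 had 0.106 and 0.124. The median of all 35116 windows was 0.579, and it divided the members with lower values from IL1A and IL1RAP, which is a description of 5 genes chosen on this contrast. The genes called higher had the lower median over the whole table: 0.683 in 1604 genes called higher, 0.819 in 849 called lower and 0.818 in 10123 not called, taking 1 window per gene. Both IL1A windows lay below each of these medians, on the same side as IL1B, IL1RN and IL33. The division of the members thus depends on taking all windows as the reference. Methylation and KDM2B binding at these promoters were not measured.

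Motif letters were searched on both strands of the same windows. The kappaB consensus, bound by NF-κB, was in none of the 15 windows of the members, and in 11.3% of all windows. The AP-1 letters TGANTCA, present in 7.71% of all windows, occurred in IL1A, in 1 window of IL1RN and in 1 window of IL1RL1. In the first IL1A window they begin at positions -12 and 39, counted from the start. The GAS letters TTCNNNGAA, which STAT factors bind and 7.66% of all windows hold, occurred in IL1B, in 1 window of IL33 and in 1 of IL1R1. In IL1B they begin at position -180. A match is only a string of letters, and windows of 300 bases leave out distant enhancers.

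The genes around the members were set beside them in genomic order, taking the 3 nearest measured protein-coding genes on each side. Of 39 distinct neighbours, 38 were tested, and 5 were called higher and 4 lower, together 23.7% of those tested, beside 13.3% higher and 6.79% lower of all genes. The spans of some neighbours overlap: FLJ20373 lies within MAP4K4, and nearly all of SDHD within ENSG00000255292. None of these was called, but such rows may share reads and are not independent in this share. None of the 6 neighbours of IL33 was called, and they ranged from -0.47 (UHRF2) to 0.43 (GLDC). Nor was any neighbour of CASP1 and CARD16 or of IL1R1 and IL1RL1. At the caspase locus, CASP4, an inflammatory caspase gene that CASP5 separates from CASP1, had a log2 fold change of 0.08 (SE 0.05, edgeR adjusted p = 0.237) and CASP5 of -0.10 on 14 and 7 counts in shKDM2B cells, against 13 and 6 in shControl cells. Around IL1RAP, the collagen prolyl hydroxylase P3H2 (1.60, SE 0.05, adjusted p = 6.56e-21) and the tight junction gene CLDN1 (1.24, SE 0.18, adjusted p = 8.79e-07) were also called higher. Beside IL18, the carotenoid oxygenase BCO2 was called higher (1.94, SE 0.20, adjusted p = 2.50e-09) and the cell adhesion gene NCAM1 lower (-0.61, SE 0.07, adjusted p = 2.42e-08). IL18 itself lies within the span of the gene ENSG00000255292 on the other strand, which had 1586 and 1567 counts in shKDM2B cells, against 1023 and 998 in shControl cells, and 0.39 as its log2 fold change. That span also holds 99.8% of the span of SDHD, on the same strand as ENSG00000255292. SDHD had 1542 and 1525 counts in shKDM2B cells, against 1007 and 978 in shControl cells (0.38). Most of the reads of ENSG00000255292 may thus be those counted for SDHD.

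The cluster that holds IL1A, IL1B and IL1RN was mixed from gene to gene. IL36B, an IL-36 agonist, had 4286 and 4110 counts in shKDM2B cells, against 1873 and 1745 in shControl cells (log2 fold change 0.97, SE 0.04, adjusted p = 3.06e-18). IL36RN, the IL-36 receptor antagonist, had 1755 and 1709 counts in shKDM2B cells, against 814 and 833 in shControl cells (0.82, SE 0.04, adjusted p = 3.17e-15). Both lie between IL1B and IL1RN, whose values were lower in shKDM2B cells. On the outer sides, NT5DC4 (-0.60), CKAP2L (-0.62) and PSD4 (-0.60) were called lower, close to the 1.5-fold threshold, and each lost the call when 1 library was left out, at -0.58 for NT5DC4 without shKDM2B library 1 or shControl library 2, at -0.50 and -0.57 for PSD4 without the same libraries, and at -0.58 for CKAP2L without shControl library 1. The spans of NT5DC4 and CKAP2L overlap on opposite strands, so part of their reads may be counted for both genes. NCAM1 lost its call at -0.54 without shKDM2B library 2. After centring on ribosomal protein genes none of these 4 was called, at -0.25 for NT5DC4, -0.28 for CKAP2L and -0.26 for PSD4 and NCAM1, and with a minimum mean count of 50 NT5DC4, PSD4 and NCAM1 were not called (-0.58 each). Calls of neighbours and members therefore did not form a block of 1 direction at this cluster.

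**Figure D4:**
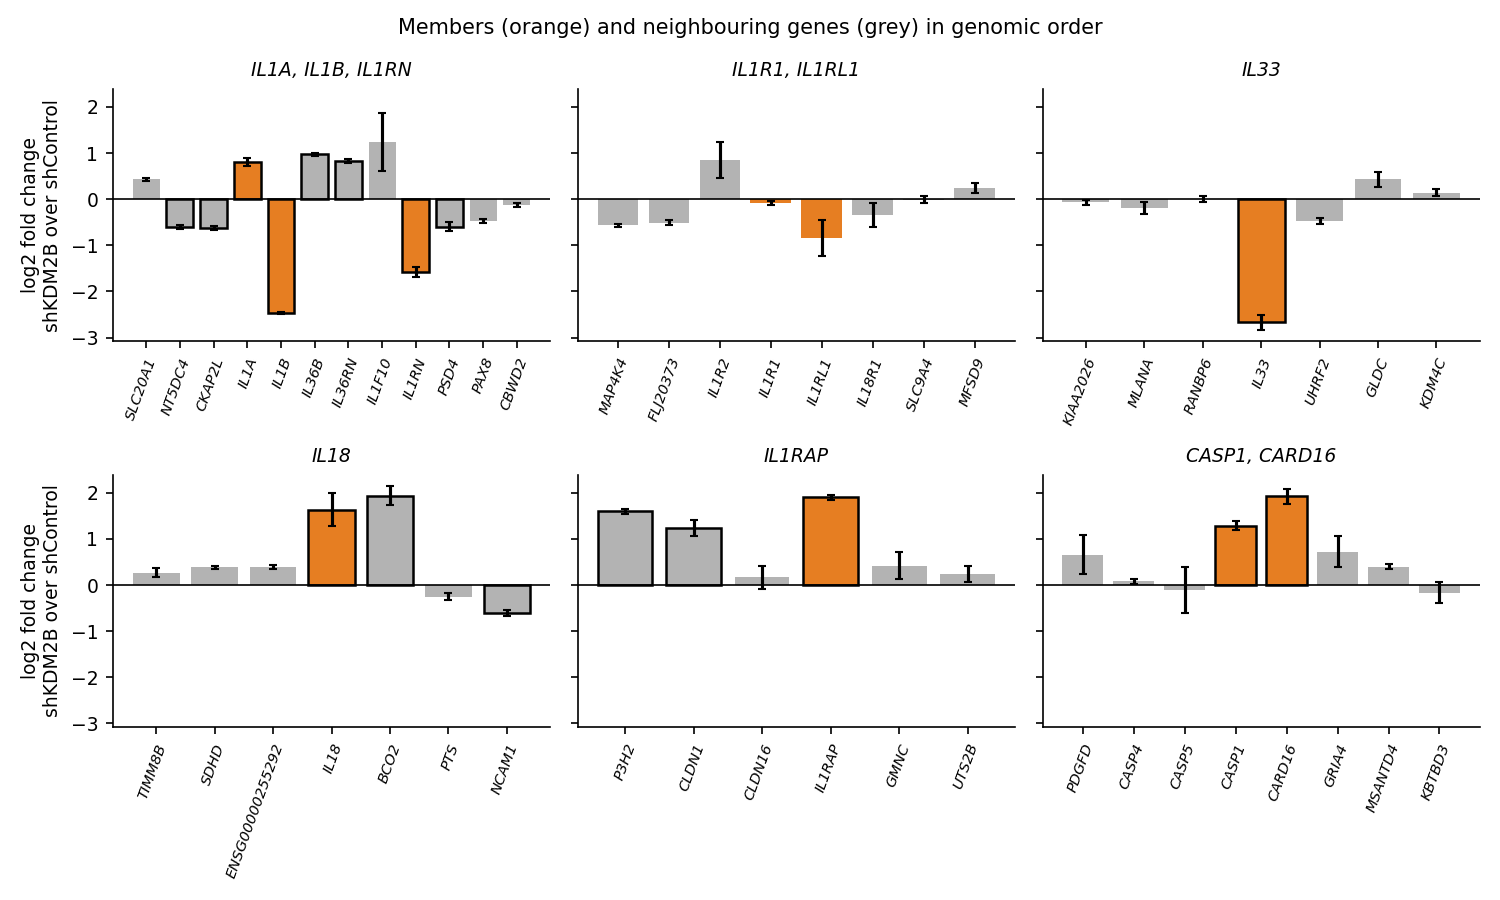
Log2 fold change, shKDM2B over shControl, of members (orange) and neighbouring genes (grey) in genomic order at 6 loci, with SE bars and a black outline on genes past both thresholds. IL1B (-2.46) and IL1RN (-1.57) are lower on either side of IL36B (0.97) and IL36RN (0.82), and the neighbours of IL33 lie between -0.47 and 0.43.

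The partners of the members were taken as whole lists. Their counts of calls stand beside 13.3% higher and 6.79% lower of all genes tested. The lists are small, and nothing is read from these counts. Of 6 other ligands, 3 had a row and IL36B and IL36RN were called higher. Of 8 other receptors and binding proteins, 6 were tested and 1 was called: SIGIRR, an inhibitory receptor of the family, at 163 and 147 counts in shKDM2B cells, against 79 and 80 in shControl cells (log2 fold change 0.71, SE 0.14, adjusted p = 6.91e-05). The decoy receptor IL1R2 had 22 and 19 counts in shKDM2B cells, against 9 and 10 in shControl cells (0.85, SE 0.39, adjusted p = 0.0634). IL18BP, the soluble inhibitor of IL-18, had 33.8 ± 1.91 CPM in shKDM2B cells and 34.2 ± 0.345 CPM in shControl cells (-0.02, SE 0.05, adjusted p = 0.793), and IL18R1 had -0.34 (SE 0.26, adjusted p = 0.28).

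Among 17 adaptors, kinases and ubiquitin ligases below the receptor, 1 was called higher and 2 lower, beside 13.3% and 6.79% of all genes tested. The other 14 were not called, and the median log2 fold change of the list was -0.04. MYD88, the adaptor of the receptor, had 0.17 (SE 0.05, adjusted p = 0.00207) and the kinase IRAK1 -0.04 (SE 0.03, adjusted p = 0.24), both inside the 1.5-fold limits. The kinase IRAK2 was lower, with 1200 and 1160 counts in shKDM2B cells, against 1747 and 1770 in shControl cells (-0.82, SE 0.04, adjusted p = 9.96e-16), but was not called after centring on ribosomal protein genes (-0.48). The ubiquitin ligases PELI1 and PELI2 went in opposite directions, at -1.14 (SE 0.13, adjusted p = 2.22e-08) and 0.94 (SE 0.12, adjusted p = 1.29e-07).

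Around caspase-1, 1 of 19 tested inflammasome genes was called higher and 0 lower, beside 13.3% and 6.79% of all genes tested. The called gene was the sensor NLRP1, with 1352 and 1306 counts in shKDM2B cells, against 647 and 666 in shControl cells (log2 fold change 0.77, SE 0.05, adjusted p = 2.83e-13). The sensor NLRP3 had 0.12 (SE 0.07, adjusted p = 0.174), and the pore former GSDMD, which caspase-1 cuts, -0.18 (SE 0.06, adjusted p = 0.0168). PYCARD, the adaptor that joins NLRP3 to caspase-1, was scarce, with 33 and 23 counts in shKDM2B cells, against 20 and 30 in shControl cells, and its groups overlapped (-0.08, SE 0.29, adjusted p = 0.826). Of 6 tested genes for other routes of processing or export, 1 was called, beside the same shares of all genes. It was the calpain CAPN2, called lower (-0.73, SE 0.03, adjusted p = 2.61e-19), a call lost after centring on ribosomal protein genes (-0.39), while CAPN1 had -0.06. Calpain is the protease known to cut the IL-1α precursor.

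Genes that IL-1 is known to induce in fibroblasts and astroglia moved in both directions, more of them down. Of 28 tested, 14 were called lower and 5 higher, against 6.79% and 13.3% of all genes, and their median log2 fold change was -0.59 against 0.01 over all genes. This list was drawn up with earlier results of these libraries known, so its balance is a description. CSF3, a neutrophil growth factor, had 17349 and 15638 counts in shKDM2B cells, against 85964 and 81998 in shControl cells (-2.60, SE 0.03, adjusted p = 1.23e-29). MMP3, a matrix metalloproteinase, had 3238 and 2625 counts in shKDM2B cells, against 16515 and 16080 in shControl cells (-2.72, SE 0.05, adjusted p = 4.01e-26). Both values were close to that of IL1B (-2.46), and in both genes the libraries of the groups lay far apart.

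Further genes of this list that fell were the cytokine LIF (-1.43, SE 0.03, adjusted p = 1.01e-24), the prostaglandin synthase PTGS2 (-1.53, SE 0.04, adjusted p = 1.80e-23), IL6 (-1.09, SE 0.03, adjusted p = 1.23e-21) and the chemokine CXCL8 (-0.98, SE 0.03, adjusted p = 1.42e-21). The monocyte chemokine CCL2 went the other way, with 1570 and 1529 counts in shKDM2B cells, against 246 and 307 in shControl cells (2.24, SE 0.07, adjusted p = 1.70e-20). IL11 (1.15, SE 0.04, adjusted p = 1.53e-20), the apoptosis inhibitor BIRC3 (1.25, SE 0.07, adjusted p = 5.86e-15), the adhesion molecule ICAM1 (0.70, SE 0.04, adjusted p = 1.95e-14) and the hyaluronan-binding TNFAIP6 (0.62, SE 0.14, adjusted p = 3.66e-04) were also higher. TNFAIP6 lost its call without shKDM2B library 1, at 0.41. The other genes of this list called lower were CCL20 (-2.25), CXCL3 (-1.62), MMP1 (-1.41), CXCL2 (-1.31), NFKBIZ (-1.16), IER3 (-0.88), PTGES (-0.65) and C3 (-0.63). After centring on ribosomal protein genes, 11 genes of the list were called lower. NFKBIA and TNFAIP3, inhibitors of NF-κB and among its best known targets, were among the 9 genes not called, at -0.22 (SE 0.04) and -0.01 (SE 0.05). They were picked after their values were seen and do not stand for the list. Whether any of these differences follows from the members was not tested, since no ligand, antagonist or receptor was manipulated.

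**Figure D5:**
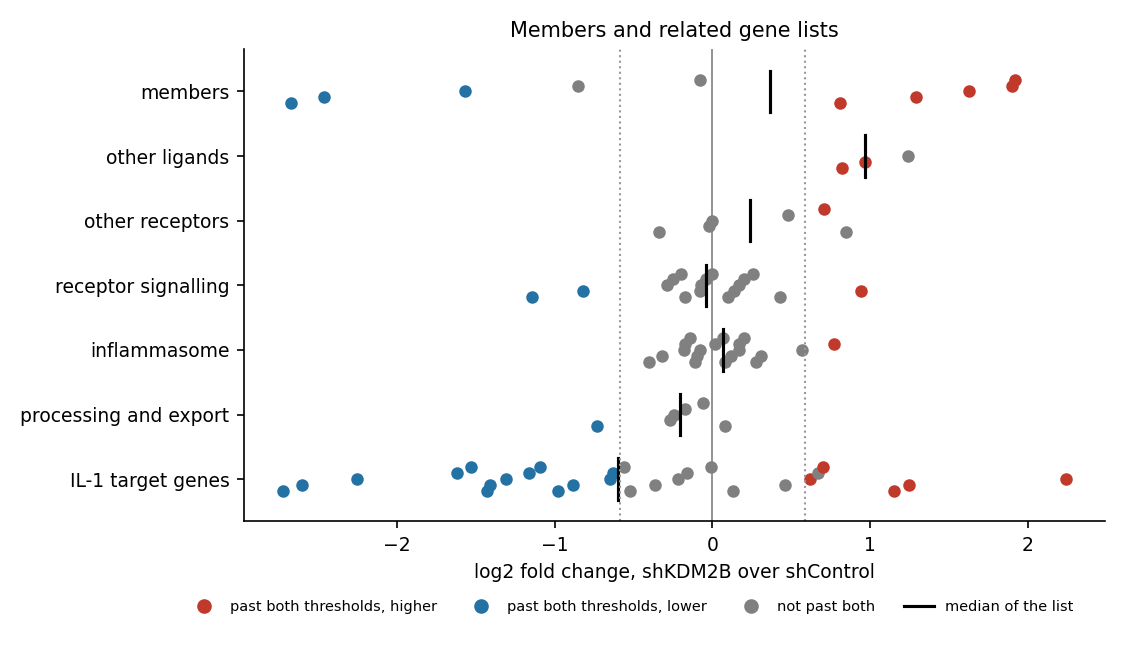
Log2 fold change, shKDM2B over shControl, of each tested gene in the members and in 6 related lists, coloured by call, with the 1.5-fold thresholds dotted and the median of each list as a black line. The receptor signalling (-0.04) and inflammasome (0.07) medians lie near 0, whereas that of the IL-1 target genes lies at -0.59.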

How the data were processed

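RNA-seq was performed on U87MG cells, 2 libraries for shKDM2B and 2 for shControl, grouped by the sample titles. By the study's supplement and the processing notes of the submitters, polyA libraries were read as 50 bp single ends and converted with CASAVA 1.8.2. The authors aligned reads to hg19 (GRCh37) with TopHat2 2.0.11, used SAMtools 0.1.19.0, and obtained raw counts on Ensembl annotation with GenomicFeatures, per transcript by their description. Strand setting, Ensembl release and the use of introns or of reads with several matches: not given in the sources used here. The deposited normalized signal is the raw count divided by 1 DESeq size factor per library; it was not used, nor were the deposited ratio, log2 fold change and p-value columns, which hold the authors' own comparison.

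The raw counts were tested with edgeR 4.0.16 (quasi-likelihood, TMM) in R 4.3.3 on 21783 genes whose mean count reached 10 in either group, and p-values were adjusted over all of them (Benjamini-Hochberg). Genes were called at an adjusted p of at most 0.05 and 1.5-fold. The supplement states the same limits for DESeq. SE is the log2 fold change divided by the root of the F statistic. The fit was also run on counts simulated from its own means and dispersions with set fold changes. Such counts cannot show whether the spread between the real libraries is technical. Levels are TMM-scaled CPM, and exonic lengths, positions and transcripts come from GENCODE v44 lifted to GRCh37. Promoter windows come from RefSeq. Depth was 30470803 to 33770421 counts per library. Replicates within each group differed beyond counting noise, with a median chi-square of 0.590 in shKDM2B and 0.656 in shControl, where 0.455 is due to sampling, and were kept apart. Intervals cover counting error only.

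The members and lists were chosen with earlier results of these data known. Named genes were every member, the called genes of each list (up to 6 of smallest adjusted p in each direction), called neighbours, KDM2B and 11 direct partners whatever their values. CASP5, CAPN1, UHRF2, GLDC, NFKBIA, TNFAIP3, NES, PTPRC, CD68, CSF1R, LYZ, ITGAM, FCER1G, CD163, IL1R1-AS1, ENSG00000255292, SDHD, FLJ20373 and MAP4K4 were added after their values were seen. So were the remaining IL-1 target genes called lower, CCL20, CXCL3, MMP1, CXCL2, NFKBIZ, IER3, PTGES and C3. Alternatives changed the scaling, tool (DESeq2 1.42.0), filter, thresholds, prior count and replicate block, left out each library, or summed CASP1 and CARD16. Tables and figures were made with Python 3.11.15, pandas 2.3.3, scipy 1.17.1 and matplotlib 3.10.9.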

Additional observations from a re-analysis of the deposited data

How the results depend on the processing

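The members' counts of 5 higher and 3 lower stayed within 4 to 5 and 3 to 4 under all alternatives run. At 2-fold IL1A dropped out, and with a minimum mean count of 50 IL18 was not tested. IL1R1 changed sign under ribosomal centring, and no other member did under any alternative run. The 2-fold threshold gave 1574 genes higher and 458 lower, 3 IL-1 target genes higher, 3 neighbours called, 1 receptor signalling gene lower, and 0 each for inflammasome, other ligands, other receptors and receptor signalling higher and for processing and export lower. With no fold threshold there were 6188 genes higher and 6416 lower, 22 neighbours called, 5 and 6 receptor signalling genes higher and lower, 6 and 4 inflammasome genes higher and lower, and 4 processing and export genes lower. Centring on ribosomal protein genes gave 5080 genes higher and 540 lower, 4 inflammasome genes higher, 3 and 1 receptor signalling genes higher and lower, and 0 processing and export genes lower. A minimum mean count of 50 gave 2 inflammasome genes higher, and leaving out single libraries gave 1 to 2, the second without shControl library 2.

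Ribosomal centring adds 1 amount to every value, so it turned named uncalled genes that were slightly below 0 to positive: GSDMD (0.17), IL18BP (0.33), IL18R1 (0.01), IRAK1 (0.31), PYCARD (0.26), CAPN1 (0.28), CASP5 (0.25), CD68 (0.01), NES (0.16), NFKBIA (0.13) and TNFAIP3 (0.34). A minimum mean count of 50 reversed IL18BP (0.01) and TNFAIP3 (0.02). Leaving out single libraries gave -0.08 to 0.04 for IL18BP, positive without shKDM2B library 1, -0.08 to 0.01 for IRAK1, positive without shControl library 2, -0.36 to 0.26 for PYCARD, positive without shControl library 2 or shKDM2B library 2, -0.52 to 0.53 for CASP5, positive without shControl library 1 or shKDM2B library 2, -0.07 to 0.07 for TNFAIP3, positive without shControl library 2, and -0.02 to 0.13 for LYZ, negative without shControl library 1 or shKDM2B library 1. These values differ because fewer libraries enter the fit.

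Replicate numbers are shared between the groups, and same-numbered libraries correlated at 0.16 in their deviations. With 2 pairs this cannot show whether same-numbered libraries share a batch or a transduction. With a replicate block 2927 genes were higher and 1482 lower, and 5 members were higher and 3 lower. Few counts limit IL18, IL33, IL1RL1, IL1R2 and PYCARD, and with 2 libraries per group no rank or permutation test of a single gene could reach 0.05.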
